A study of Gallus gallus with 6 samples.

Results

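The genes described here belong to mitochondrial fatty acid oxidation and its control by the nuclear receptor PPARA, measured by RNA-seq in the jejunum of Korat chickens, a slow-growing line. They were chosen by symbol: PPARA, PDK4, CPT1A, CPT2, ACADL, ACADM, HADHA, HADHB and ACSL1. The symbols of 8 of the 9 were found among the 24356 genes listed, and all 8 were among the 14282 genes that reached a mean FPKM of 0.5 and were tested. ACADM was not analysed here. The study asked which jejunal genes differ between birds that convert feed into body weight at different efficiency. The low-FCR group (L1, L2 and L3) had an extremely low feed conversion ratio, which is feed eaten per weight gained, and the high-FCR group (H1, H2 and H3) an extremely high one. All 6 birds were 10 weeks old, of the same line, caged singly and fed the same starter, grower and finisher diets without restriction, then fasted before sampling. There was 1 library per bird, so n = 3 per group, and FCR itself was used to pick the birds.

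Fatty acids are first joined to coenzyme A by acyl-CoA synthetases, carried into the mitochondrion as carnitine esters, and then shortened by repeated rounds of dehydrogenation, hydration, dehydrogenation and thiolysis. PPARA is a receptor that binds fatty acids, pairs with a retinoid X receptor and drives many genes of this route, mainly during fasting. PDK4, a kinase that switches off pyruvate dehydrogenase, is a well known target and spares glucose when fat is burnt. In the small intestine the route is run mostly by absorptive enterocytes, which also take up and export dietary fat.

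Library totals lay between 10436038 and 11370043 counts, and 3 counts corresponded to 0.249 to 0.304 CPM (counts relative to the library total, scaled by TMM factors of 0.870 to 1.06). The title of H3 carries the words low-FCR beside its high-FCR code. It was kept with the high-FCR birds, where the study's own sample list also places it. L1 had 16140 counts on genes of chromosome W, which only hens carry, against 48 to 80 in the other 5 birds, whereas the study's methods describe males. On chromosome Z, L1 had 261503 counts, against 373011 to 406467 in the other 5 birds. PLIN2, OXCT1, AMACR, PRKAA1 and UGCG, named below, lie on Z, and the part of this in their levels was not tested. Absorptive enterocyte markers were found in every bird, yet their summed level was uneven: 16570, 12865 and 6583 CPM in L1, L2 and L3, against 14697, 5180 and 3379 CPM in H1, H2 and H3. Distal small intestine markers summed to 4942 CPM in L1 and to 57.8 to 724 CPM in the other birds, and in L1 most of it came from FABP6, the ileal bile acid binding protein (4580 CPM). SLC51A of this list was also highest in L1, but SLC10A2 was highest in L3, at 121 CPM against 47.3 CPM in L1. CUBN, which is on the enterocyte list too, was close in L1, L2 and H1 (120, 111 and 105 CPM). In bulk tissue, fewer cells of a type and less RNA per cell cannot be told apart.

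None of the 8 genes passed the test between the groups. By edgeR's quasi-likelihood test with Benjamini-Hochberg adjustment over all 14282 genes, 0 of the 8 and 0 of all genes had an adjusted p under 0.05, which is 0% of the genes tested, and the smallest adjusted p was 0.997. PPARA and PDK4 had an unadjusted p under 0.05, both with higher means in low-FCR birds. That is 2 of 8 genes, where 3.24% of all genes tested reached that level in either direction and 2.02% did so with the higher level in low-FCR birds. At the same unadjusted level DESeq2 gave 2 of the 8, limma-voom 1 and limma on log2(FPKM + 0.5) 0. At the adjusted level these tools gave 0 of the 8. With library totals only, edgeR itself gave 0 of the 8 at the unadjusted level, and with RLE or upper quartile factors it gave 2. The FPKM do not use TMM factors either, and the part of scaling in the 0 from limma on FPKM was not tested. The other 6 genes had log2 FC values between -0.10 and 0.23, and the median over the 8 was 0.05, beside 0.02 over all genes tested.

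**Figure D1:**
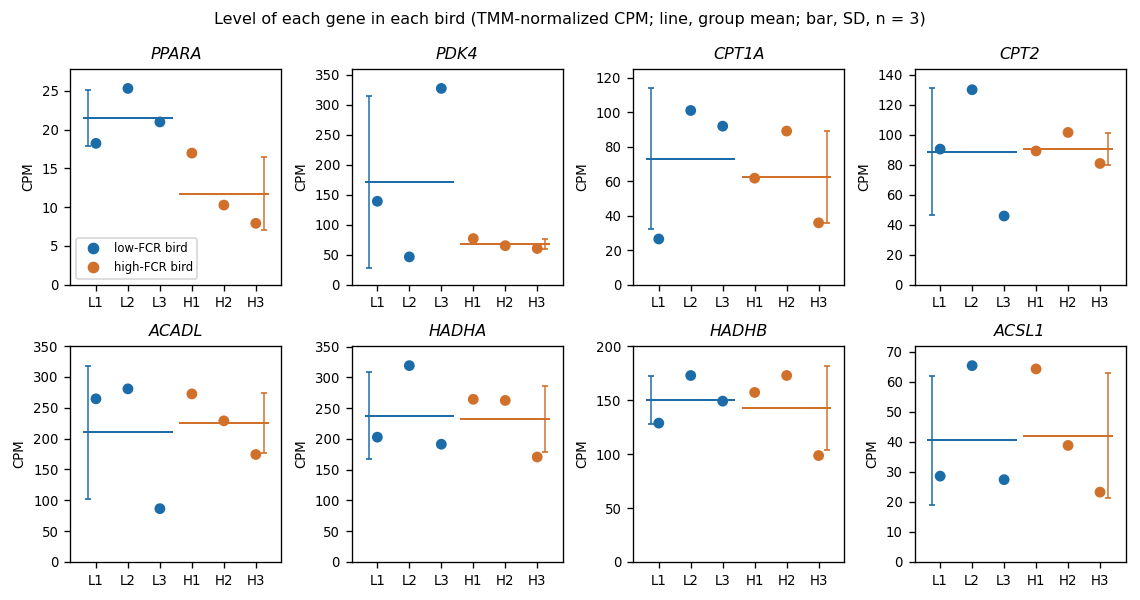
TMM-normalized CPM (y axis, linear from 0) of the 8 genes in each bird (x axis), with low-FCR birds in blue on the left and high-FCR birds in orange on the right; lines are group means and bars the SD (n = 3). The low-FCR points lie above the high-FCR points for PPARA alone, PDK4 is spread from 46.4 to 327 CPM within the low-FCR group, and the other 6 genes overlap.

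PPARA, the receptor, lies on chromosome 1 (71237629 to 71271740, plus strand, assembly GRCg6a). It was higher in low-FCR birds on average, at 21.5 ± 3.57 CPM against 11.7 ± 4.70 CPM in high-FCR birds (SD, n = 3 each). Its levels were 18.2, 25.3 and 21.0 CPM in L1, L2 and L3, against 17.0, 10.3 and 7.92 CPM in H1, H2 and H3. H2 and H3 were low, H1 lay next to L1, and the groups did not overlap, as was so for 6.36% of all genes tested and, with the higher level in low-FCR birds, for 2.97% (with the lower level in low-FCR birds, 3.4%). The log2 FC was 0.88 (SE 0.36, 95% interval 0.06 to 1.70) and the edgeR adjusted p = 0.997, although the p before adjustment was under 0.05. The separation depended on scaling, since in FPKM as deposited L1 had 7.29 and H1 had 8.10.

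The bird numbers in the labels fall in 2 series, with L1, L2, L3 and H1 in one and H2 and H3 in the other. PPARA was lowest in the birds of the second series, and within the first series H1 (17.0 CPM) lay just below the lowest low-FCR bird (18.2 CPM). A term for the number series leaves H1 as the only high-FCR bird set against the low-FCR birds. With that term the edgeR log2 FC of PPARA was 0.34. Placing H3 among the low-FCR birds, as the words of its title have it, gave 0.41 (SE 0.48). The unadjusted edgeR p with H3 so placed was not under 0.05. Enterocyte markers stood beside it as a further measure: their mean level around the average of the birds was 0.91, 0.83 and -0.53 on the log2 scale in L1, L2 and L3, and 1.03, -0.68 and -1.57 on that scale in H1, H2 and H3. H2 and H3, where PPARA was low, also had the lowest mean of the enterocyte markers. L3 was low in that mean without being low in PPARA. The single markers differed: APOA1 and APOA4 were lowest in H2 and H3, whereas RBP2 and VIL1 were lowest in L3 (354 and 346 CPM). The part of the markers in the difference was not tested.

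**Figure D2:**
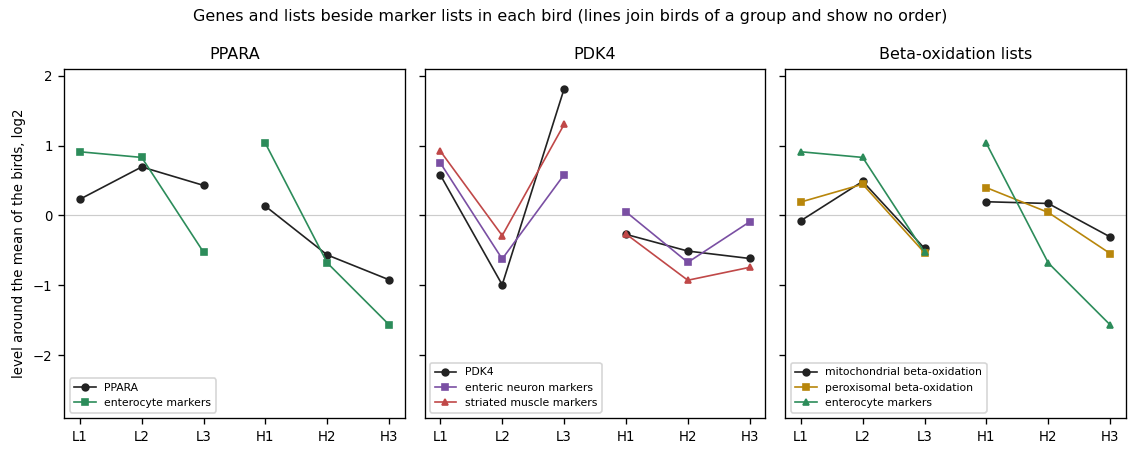
Level around the mean of the 6 birds on the log2 scale (y axis) by bird (x axis, low-FCR birds left, high-FCR birds right) for PPARA, PDK4 and the beta-oxidation lists, each beside marker lists of cell types; lines only join birds of a group. PPARA and the enterocyte markers are both lowest in H3 (-0.92 and -1.57), and PDK4 and the striated muscle markers are both highest in L3 (1.81 and 1.30). The striated muscle mean covers only the 4 of 10 listed genes that were tested. NRAP and MYOZ3 were highest in L3, but TNNC1 and ACTC1 were not. Other marker lists are not drawn.

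PPARA shares its DNA element and its partners with PPARD and PPARG, the other receptors of the family. In FPKM, which is per transcript length, PPARA made up 28.0%, 48.4% and 30.4% of the summed family level in L1, L2 and L3, and 29.6%, 19.6% and 20.5% of it in H1, H2 and H3. L2 was the only bird in which PPARA exceeded PPARD. PPARA was there at its highest, 11.5 FPKM, and PPARD at its lowest, 6.98 FPKM, against 9.97 to 17.4 FPKM in the other 5 birds. PPARG, best known from fat cells, varied least, from 4.15 to 5.97 FPKM. RXRA, the retinoid X receptor that pairs with them, had a log2 FC of 0.48 (SE 0.28). MED1, SIRT3 and NCOA2, of the list of partners and co-regulators, went the other way, with log2 FC values of -0.27, -0.32 and -0.33. That list also holds PPARD and PPARG, with log2 FC values of 0.08 and 0.19. Of its 11 genes tested, 0 had an unadjusted p under 0.05, and the median log2 FC was -0.01. A higher fitted level in low-FCR birds was found for 5 of them, PPARD and PPARG included, and a lower one for 6.

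**Figure D3:**
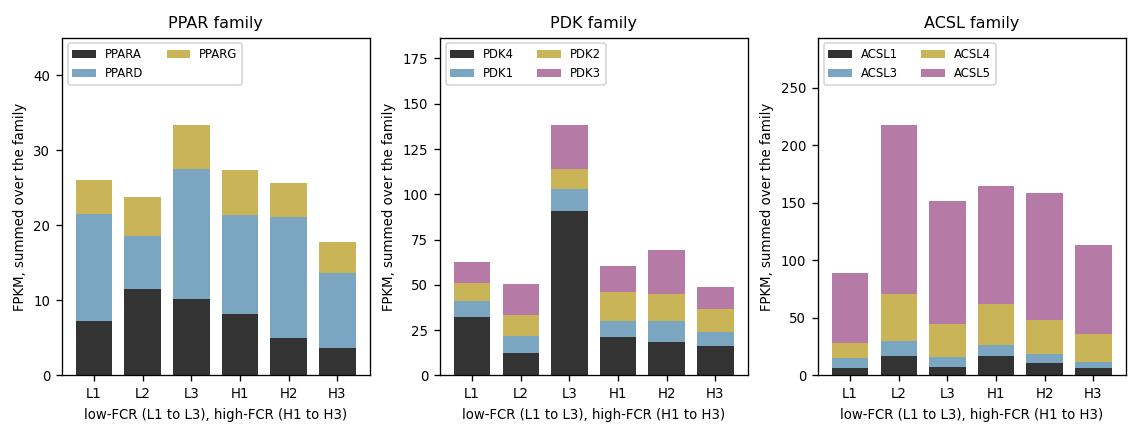
Summed FPKM (y axis) of the PPAR receptors, the pyruvate dehydrogenase kinases and the long-chain acyl-CoA synthetases in each bird (x axis, low-FCR birds left, high-FCR birds right), with each gene a segment. PDK4 alone reaches 90.95 FPKM in L3, and ACSL5 is the largest segment of its family in every bird.

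PDK4, on chromosome 2 (23905072 to 23914501, minus strand, GRCg6a), had the largest fold change among the 8 genes and also the largest spread. It was measured at 139, 46.4 and 327 CPM in L1, L2 and L3, against 77.0, 65.1 and 60.5 CPM in H1, H2 and H3. L3 and L1 were above every high-FCR bird and L2 was below every one, so the groups overlapped, while the 3 high-FCR birds lay close together. The group means were 171 ± 143 CPM in low-FCR birds and 67.5 ± 8.51 CPM in high-FCR birds (SD, n = 3 each), and the log2 FC was 1.34 (SE 0.57, 95% interval 0.04 to 2.64, edgeR adjusted p = 0.997). Without L3 the log2 FC was 0.46 (SE 0.43, edgeR adjusted p = 0.973), and without L2 it was 1.77 (SE 0.37, edgeR adjusted p = 0.351).

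Among the 4 pyruvate dehydrogenase kinases, PDK4 held 51.2%, 24.2% and 65.8% of the summed FPKM in L1, L2 and L3, and 35.0%, 26.5% and 32.8% of it in H1, H2 and H3. PDK2, a kinase of broad tissue distribution, was at 28.9, 29.2 and 26.6 CPM in L1, L2 and L3, against 38.0, 35.5 and 32.4 CPM in H1, H2 and H3. All 3 low-FCR birds lay below all 3 high-FCR birds for PDK2, with a log2 FC of -0.32 (SE 0.23). PDP1, a phosphatase that reactivates pyruvate dehydrogenase, lay the other way at 31.5, 27.0 and 43.3 CPM in L1, L2 and L3, against 23.6, 21.5 and 24.0 CPM in H1, H2 and H3. Its log2 FC was 0.56 (SE 0.27), with an edgeR adjusted p = 0.997. PDHX, which anchors a subunit of the complex, did not overlap either, with a log2 FC of -0.43 (SE 0.27). PDK2, PDP1 and PDHX were named for their small p within this list. Of its 10 genes, 1 was without overlap and higher in low-FCR birds, and 2 were without overlap and lower. Over all genes tested these shares were 2.97% and 3.4%. Of the 10 genes, 4 had a higher and 6 a lower fitted level in low-FCR birds, and 0 had an unadjusted p under 0.05.

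Markers of other tissues were uneven between the birds too, and part of them were high where PDK4 was high. Striated muscle markers summed to 17.7, 6.51 and 49.3 CPM in L1, L2 and L3, against 7.31, 3.81 and 4.84 CPM in H1, H2 and H3, but NRAP and MYOZ3 made up most of the sum in L3 (19.6 and 27.0 CPM). The study lists NRAP and MYOZ3 among its genes higher in low-FCR birds, from these same libraries. TNNC1 was highest in L1 (2.33 CPM, against 1.83 CPM in L3). ACTC1 went the other way, at 0.183 CPM in L3 and 2.13, 2.32 and 2.18 CPM in L1, L2 and H1. ACTN2 was at 0 in L3, and MYL3 was at 0 in all birds. Enteric neuron markers summed to 75.7, 17.2 and 64.2 CPM in L1, L2 and L3, against 35.2, 17.3 and 32.0 CPM in H1, H2 and H3, although CHAT was lowest in L3 (0.548 CPM). L3 and L1 had the highest sums of both lists, as of PDK4. Adipocyte markers averaged 0.53, -0.11 and 0.78 around the mean of the birds on the log2 scale in L1, L2 and L3, and 0.01, -0.46 and -0.75 on that scale in H1, H2 and H3. FABP4 and PLIN1 of this list were highest in L3 (21.1 and 9.04 CPM), while ADIPOQ and CIDEC were highest in L1 (165 and 50.04 CPM). Of the pancreas markers only CELA1 reached the level for testing, and it was highest in L3 (11.1 CPM). Smooth muscle markers summed to 16252, 4288 and 6673 CPM in L1, L2 and L3, against 11318.5, 5473 and 6942 CPM in H1, H2 and H3. For these L1 was high, as for PDK4, but L3 was not. Goblet cell markers summed to 1571, 120 and 1483 CPM in L1, L2 and L3, against 631, 116 and 12.4 CPM in H1, H2 and H3. Most of each sum came from CLCA1, while SPINK4 went the other way and was lowest in L3 (0.183 CPM). The part of these tissues and cells in the level of PDK4 was not tested.

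CPT1A makes the carnitine esters at the outer mitochondrial membrane, the step that malonyl-CoA restrains, and lies on chromosome 5 (16814154 to 16844218, minus strand, GRCg6a). It was at 26.5, 101 and 92.0 CPM in L1, L2 and L3, against 61.8, 89.1 and 35.9 CPM in H1, H2 and H3. L1 and H3 were low and the other 4 birds were not, so that each group held a low bird. The log2 FC was 0.23 (SE 0.50, 95% interval -0.90 to 1.37), an interval that holds both a 0.537-fold and a 2.58-fold level in low-FCR birds. CPT2, which turns the esters back into acyl-CoA inside the mitochondrion, was at 90.5, 130 and 45.8 CPM in L1, L2 and L3, against 89.2, 102 and 80.9 CPM in H1, H2 and H3. Here L3 was the low bird and L2 the high one, and the log2 FC was -0.03 (SE 0.35, 95% interval -0.83 to 0.77). The ratio of CPT1A to CPT2 in FPKM was therefore lowest in L1, at 0.293, and highest in L3, at 2.00, with 0.443 to 0.875 in the other birds.

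SLC25A20, which exchanges the esters across the inner membrane, was at 159, 152 and 106 CPM in L1, L2 and L3, against 115, 115 and 90.7 CPM in H1, H2 and H3, with a log2 FC of 0.38 (SE 0.24). SLC22A5, which imports carnitine into the cell, was low and uneven, at 2.43, 15.2 and 7.58 CPM in L1, L2 and L3, against 11.2, 22.3 and 6.69 CPM in H1, H2 and H3. L1 had the lowest level of both CPT1A and SLC22A5. Of the 5 genes tested in the list for malonyl-CoA control of CPT1A, 1 had a higher and 4 a lower fitted level in low-FCR birds. PRKAB1, counted as lower, had a log2 FC of only -0.0009. ACACA, which makes malonyl-CoA, had a log2 FC of -0.09 (SE 0.33). MLYCD, which breaks it down, had a log2 FC of -0.27 (SE 0.29).

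ACSL1, which activates long-chain fatty acids, was at 28.6, 65.3 and 27.4 CPM in L1, L2 and L3, against 64.3, 38.8 and 23.2 CPM in H1, H2 and H3. L2 and H1 were high and the groups overlapped almost fully, with a log2 FC of -0.06 (SE 0.45, 95% interval -1.09 to 0.98). It was a small share of the synthetases in this tissue, 4.86% to 10.3% of the summed FPKM, whereas ACSL5, which is abundant in intestine, held 62.2% to 70.6%. ACSL3, a synthetase of the endoplasmic reticulum and lipid droplets, had the smallest p of the family at a log2 FC of 0.54 (SE 0.31).

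ACADL, the long-chain acyl-CoA dehydrogenase of the first step of each round, was at 264, 281 and 86.4 CPM in L1, L2 and L3, against 272, 229 and 174 CPM in H1, H2 and H3. L3 stood lowest, with H3 next above it. The log2 FC was -0.10 (SE 0.42, 95% interval -1.05 to 0.86). HADHA and HADHB are the subunits of the trifunctional protein, which carries out the remaining steps on long chains. HADHA was at 203, 319 and 191 CPM in L1, L2 and L3, against 264, 263 and 171 CPM in H1, H2 and H3, with a log2 FC of 0.03 (SE 0.29, 95% interval -0.64 to 0.70). HADHB was at 129, 173 and 149 CPM in L1, L2 and L3, against 157, 173 and 98.7 CPM in H1, H2 and H3, with a log2 FC of 0.07 (SE 0.27, 95% interval -0.54 to 0.68). H3 was the lowest bird for both, and the sign of each difference was lost with library totals as the only scaling (-0.064 and -0.020).

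The subunits had the most similar pattern of any pair among the 8 genes, with a root mean square difference of 0.17 on the log2 scale over the 6 birds, and CPT2 with ACADL came next at 0.25. PDK4 and ACADL were least alike, at 1.44. HADHA and HADHB lie on opposite strands of chromosome 3 and their gene spans overlap by 1862 bases. Whether counting used strand is not given in the sources used here, so reads in the overlap cannot be assigned with certainty to either gene. The HADHA to HADHB ratio in FPKM was between 0.991 (L3) and 1.42 (L2) in low-FCR birds, and between 1.17 (H2) and 1.33 (H3) in high-FCR birds.

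On the FPKM scale the mean levels over the 6 birds ran from HADHA (84.1), ACADL (82.5) and HADHB (68.1) through CPT2 (33.8), PDK4 (31.8) and CPT1A (26.1) to ACSL1 (10.6) and PPARA (7.62). HADHB exceeded CPT2, and CPT1A exceeded ACSL1, in 6 of 6 birds, with gaps in the means of 2.16 and 1.22 times the larger SD. HADHA exceeded ACADL, and PDK4 exceeded CPT1A, in only 3 of 6 birds, and the gaps between all other neighbours were smaller than the larger SD. ACSL1 and PPARA, the lowest of the 8, were close, and PPARA exceeded ACSL1 in L1 and L3.

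**Figure D4:**
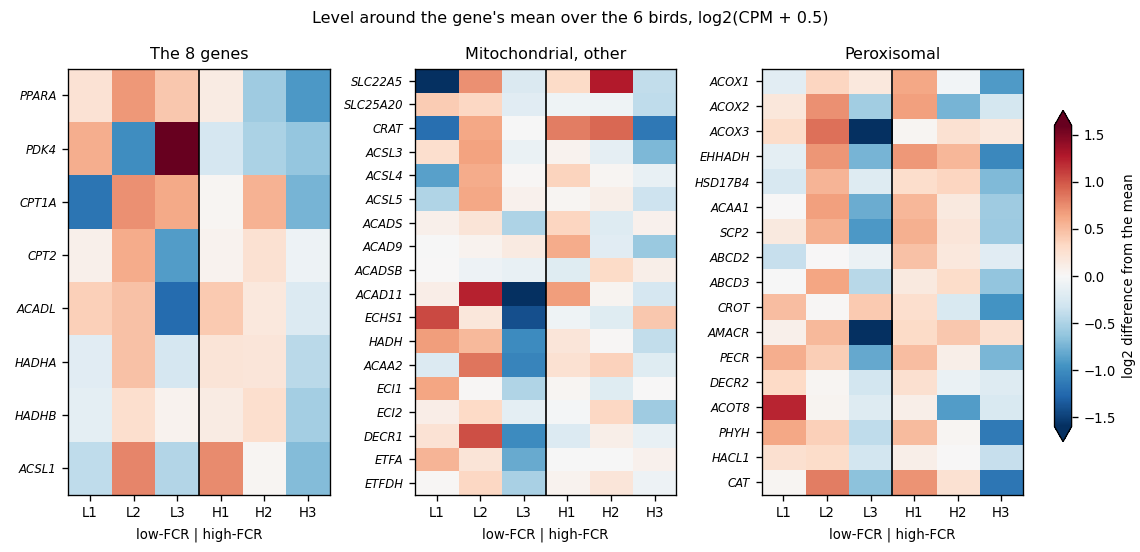
Level of each gene around its own mean over the 6 birds, log2(CPM + 0.5), for the 8 genes, the other mitochondrial genes and the peroxisomal genes (rows) in each bird (columns, low-FCR birds left of the line, high-FCR birds right); red is above and blue below the mean, and colours stop at the ends of the bar. L2 is red and L3 blue for most oxidation enzymes, and PDK4 in L3 (1.81) is off the scale.

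The mitochondrial list was spread more widely among the low-FCR birds than between the groups. With the 6 enzymes above included, 24 mitochondrial beta-oxidation genes were tested. L2 was the highest bird for 12 of the 24 and the lowest for 0, while L3 was the highest for 0 and the lowest for 11. Over all genes tested, L2 was the highest bird for 11.3% and L3 the lowest for 20.9%. The mean level of the 24 genes around the average of the birds was -0.08, 0.49 and -0.47 on the log2 scale in L1, L2 and L3, and 0.20, 0.17 and -0.31 on that scale in H1, H2 and H3. L2 and L3, both low-FCR birds, thus marked the ends of the range. Of the 18 genes of this list beside the 6 enzymes, 0 had an unadjusted p under 0.05, 11 had a higher and 7 a lower fitted level in low-FCR birds, and the median log2 FC was 0.09.

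Single enzymes showed how far L3 stood from its group. ECHS1, the short-chain enoyl-CoA hydratase, was at 200, 108 and 35.9 CPM in L1, L2 and L3, against 91.7, 84.1 and 129 CPM in H1, H2 and H3. DECR1, needed for unsaturated fatty acids, was at 185, 320 and 77.7 CPM in L1, L2 and L3, against 134, 167 and 145 CPM in H1, H2 and H3, with a log2 FC of 0.38 (SE 0.44). L3 had the lowest level of all 6 birds for both. ECHS1 was chosen after its values were seen.

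Peroxisomes shorten very long chains before mitochondria take over. L2 was the highest bird for 10 of the 17 peroxisomal genes tested, and H3 and L3 were the lowest for 8 and 6 of them. H3 was the lowest bird for 12.98% of all genes tested. The list averaged 0.19, 0.45 and -0.53 on the log2 scale in L1, L2 and L3, and 0.40, 0.04 and -0.55 on that scale in H1, H2 and H3. L3 and H3, the low birds, were also low in the mean of the enterocyte markers, with -0.53 in L3 and -1.57 in H3. H2 was low in that mean as well, with -0.68, but was not low in this list. The part of cell makeup was not tested. ACOT8, a peroxisomal thioesterase, was at 197, 86.8 and 73.1 CPM in L1, L2 and L3, against 90.3, 45.2 and 71.0 CPM in H1, H2 and H3. L1 stood high, and the log2 FC of 0.79 (SE 0.41) was 0.21 without L1. CROT, which makes carnitine esters for export to mitochondria, had a log2 FC of 0.55 (SE 0.32). ABCD2 and AMACR went the other way, with log2 FC values of -0.33 (SE 0.30) and -0.43 (SE 0.49). Of the 17 genes, 12 had a higher and 5 a lower fitted level in low-FCR birds, and 0 had an unadjusted p under 0.05.

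**Figure D5:**
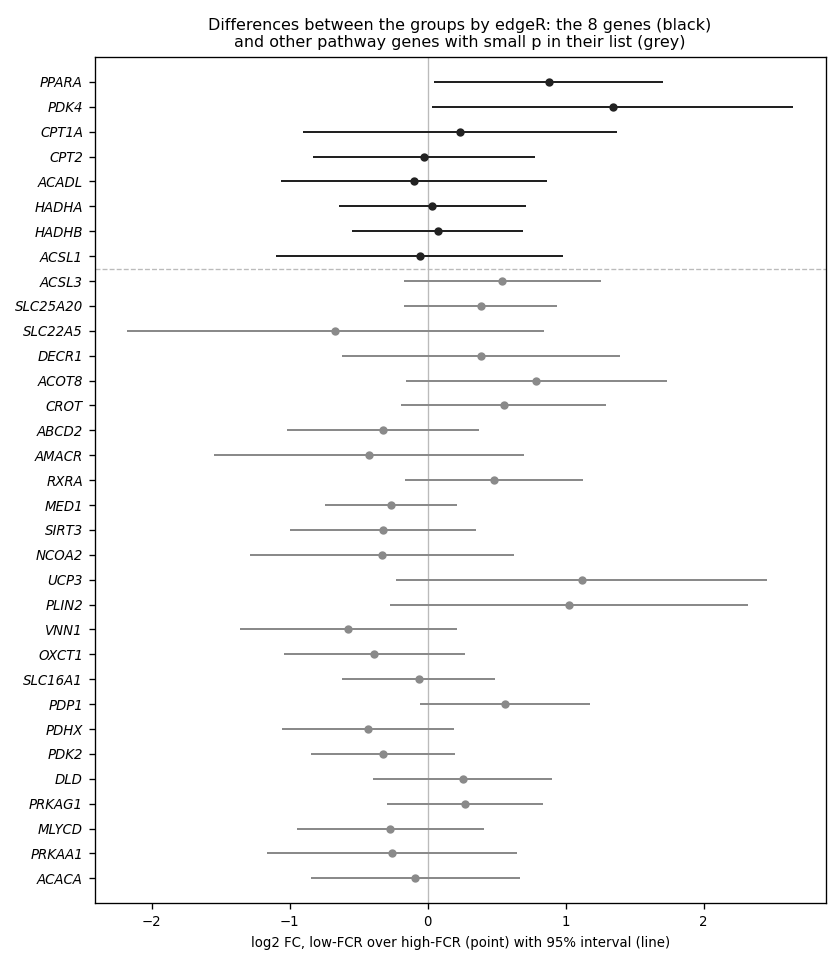
log2 FC of low-FCR over high-FCR birds (x axis; point, edgeR estimate; line, 95% interval; n = 3 per group) for the 8 genes (black, above the dashed line) and for other pathway genes with small p in their list (grey). The intervals of PPARA (0.06 to 1.70) and PDK4 (0.04 to 2.64) lie above 0 before adjustment, and all others hold 0. The intervals were built from the same test as the unadjusted p.

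Other known targets of PPARA lay on both sides of 0. Of 21 tested, 12 had a higher and 9 a lower fitted level in low-FCR birds, 0 had an unadjusted p under 0.05, and the median log2 FC was 0.16. UCP3, a mitochondrial carrier that fasting induces in mammalian muscle, was at 4.56, 2.41 and 3.01 CPM in L1, L2 and L3, against 1.74, 0.663 and 2.20 CPM in H1, H2 and H3. It was 1 of 21 in which the groups did not overlap, where 6.36% of all genes tested did not, with a log2 FC of 1.12 (SE 0.59, edgeR adjusted p = 0.997). PLIN2, which coats lipid droplets, was at 62.8, 164 and 419 CPM in L1, L2 and L3, against 111, 120 and 86.2 CPM in H1, H2 and H3. The log2 FC of 1.03 (SE 0.57) rested on L3, since it was 0.10 without that bird.

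L3, the bird with the most PDK4, thus also had the most PLIN2. VNN1, a pantetheinase, had a log2 FC of -0.57 (SE 0.34). CD36 and FABP1, which take up and carry fatty acids and were chosen after their values were seen, were highest in H1, a high-FCR bird, at 91.1 and 1434 CPM. H3 was the lowest bird for 11 of the 21 targets.

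Ketone bodies are made from the acetyl-CoA that oxidation yields. OXCT1, which starts their use in tissues, was at 185, 183 and 104 CPM in L1, L2 and L3, against 185, 246 and 186 CPM in H1, H2 and H3. L3 was the lowest bird and H2 the highest, with a log2 FC of -0.39 (SE 0.28). The gene span of ACOT8, named above, overlaps ZSWIM3 by 279 bases, so reads there are uncertain too. In all, 79 pathway genes other than the 8 were tested, 42 with a higher and 37 with a lower fitted level in low-FCR birds, and 0 had an unadjusted p under 0.05.

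Among the genes whose pattern over the 6 birds was nearest to that of PPARA, of 11130 genes with a symbol, were SLC3A1 and MAP3K21, with root mean square differences of 0.19 and 0.21 on the log2 scale. SLC3A1 was at 141, 134 and 128 CPM in L1, L2 and L3, against 128, 77.7 and 54.8 CPM in H1, H2 and H3, so that H2 and H3 stood low as they did for PPARA. The nearest to PDK4 were CDH19, FGFBP2 and TTLL7 (0.22, 0.22 and 0.23), and TTLL7 was at 14.4, 4.99 and 32.2 CPM in L1, L2 and L3, against 9.93, 7.62 and 4.49 CPM in H1, H2 and H3. The nearest to CPT1A were GPR55, CBX6 and UGCG (0.15, 0.17 and 0.18), with UGCG at 8.91, 34.5 and 35.3 CPM in L1, L2 and L3, against 28.6, 37.1 and 16.4 CPM in H1, H2 and H3. These are descriptions of 6 libraries, chosen for their likeness.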

How the data were processed

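Jejunum RNA of 6 birds was sequenced, 1 library each. Per the submitters' processing notes, the tools named were Cutadapt 1.9.1, HISAT2 2.0.1, HTSeq 0.6.1, Cufflinks 2.2.1 and DESeq2, with assembly GRCg6a. The authors deposited raw counts per gene and FPKM for each bird, and the FPKM deposited equalled count over exonic size and library total within 0.006 for every gene. Strand use was not given in the sources used here.

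Genes whose FPKM averaged 0.5 or more were tested in edgeR 4.0.16 (quasi-likelihood, TMM, Benjamini-Hochberg; R 4.3.3) over all 6 birds without covariates, and called at an adjusted p under 0.05. The script was run on simulated data, where the pass rule covered only the fold changes, at a dispersion lower than in these data. Intervals are 95%. Alternatives were DESeq2 1.42.0, limma and limma-voom 3.58.1, other pseudocounts (0.1 and 1), filters, scalings, designs and birds left out. Groups followed the codes in the titles, which for H3 is also the study's own grouping. Named were the 8 genes, in each pathway list the 4 with the smallest p, genes of the same step, and the 3 nearest in pattern to PPARA, PDK4 and CPT1A. The genes and lists were chosen with earlier results of these data known. Some genes that this rule names are not reported here. A planned search of promoter motifs was not run. Whether birds shared a hatch or processing day was not given. The p-values set the group difference against the spread between these birds, which was estimated partly from all genes.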

Additional observations from a re-analysis of the deposited data

How the results depend on the processing

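With 3 birds per group even large fitted differences did not pass the adjusted threshold in edgeR, such as NRAP with a log2 FC of 2.99. The lack of calls therefore sets no upper bound on the differences. In each of the 21 alternatives 0 of the 8 genes and 0 of the other pathway genes passed it, and over all genes the count was 0 except with DESeq2 (8) and with the replicate number as a block (2). Same-numbered birds correlated at 0.19, 0.17 and 0.01 in their deviations from the group means, and differently numbered birds at -0.26 to 0.11. The deviations within a group cancel out, so these correlations depend on one another. Whether same-numbered birds share more than a number was not tested. Under the block the log2 FC was 0.94 for PPARA and 0.93 for PDK4. PPARA and PDK4 kept a higher level in low-FCR birds in 21 of 21 alternatives, over log2 FC ranges of 0.34 to 1.24 and 0.46 to 1.77, with an unadjusted p under 0.05 in 10 and 7 of them. The median log2 FC of all genes was 0.02 in edgeR with TMM factors and -0.08 in edgeR with library totals only. In limma on FPKM it was -0.09, -0.10 and -0.08 with pseudocounts of 0.5, 0.1 and 1.

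Signs turned for small differences, and the cause was not tested. Moving H3 to the low-FCR group gave a log2 FC of -0.24 for CPT1A, -0.25 for HADHA, -0.27 for HADHB and -0.10 for DLD. HADHA gave -0.0745, -0.0749 and -0.0740 in limma on FPKM with pseudocounts of 0.5, 0.1 and 1, and library totals gave -0.064 for HADHA and -0.020 for HADHB. The FPKM and the library totals have in common that neither uses TMM factors. The term for the number series, which sets H1 alone against the low-FCR birds, gave -0.15 for HADHA, -0.065 for HADHB and 0.31 for SLC16A1. Without L1 and H3 together it was -0.038 for HADHA, -0.028 for HADHB, 0.033 for SLC16A1, -0.053 for DLD and 0.078 for ACACA. Leaving out 1 bird at a time, the log2 FC ranged from -0.091 to 0.63 for CPT1A, -0.43 to 0.28 for CPT2, -0.38 to 0.28 for ACADL, -0.26 to 0.17 for HADHA, -0.14 to 0.23 for HADHB, -0.61 to 0.38 for ACSL1, -0.20 to 0.76 for DECR1, -0.22 to 0.11 for SLC16A1, -0.58 to 0.061 for PRKAA1 and -0.39 to 0.16 for ACACA.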
